A study of Mus musculus with 12 samples.

Results

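The skin described here came from mice that were injected with LL37 and also received rapamycin (RAPA), which inhibits mTORC1, and it was set against skin of control mice that received neither. The members are the 3 LL37 + RAPA libraries and the 3 control libraries, 6 of the 12 in the series, chosen by the group named in their labels. The question of the comparison is which gene programs stayed away from the control level despite RAPA, and which stood past it. Libraries came from RNA of skin, 3 for each combination of LL37 or vehicle with or without RAPA.

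All groups were BALB/c mice, and the LL37 model used mice at 8 weeks of age. LL37, the peptide cut from the human antimicrobial protein cathelicidin, was injected into the dermis of the back at 40 μl a time, 2 times a day for 2 days, and mice without LL37 had vehicle injections. RAPA was given into the peritoneum at 4 mg/kg per day. The peptide is human and was supplied by injection, so its level in the skin does not reflect the mouse's own gene. The mice are described as independent biological samples, and neither the labels nor the methods give litters, cages or sequencing batches.

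mTORC1 joins signals from nutrients, energy and cytokines to the making of protein, nucleotide and lipid, and RAPA blocks part of its activity. In skin, LL37 acts on keratinocytes, mast cells and myeloid cells, which release chemokines and proteases that draw neutrophils and monocytes into the dermis. Whole mouse back skin also holds dermal fat and, beneath it, the panniculus carnosus, a thin sheet of skeletal muscle. These are bulk samples, in which fewer cells of a type and less RNA per cell cannot be told apart.

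Between 19114260 and 20158083 reads were counted on genes in the control libraries, and between 19860864 and 23271784 in the LL37 + RAPA libraries. Values are given as CPM, a gene's counts scaled to a common library size with TMM factors, and 3 counts, the detection floor used here, amounted to 0.123 to 0.184 CPM depending on the library. Keratins of the epidermis marked every library as skin, with Krt5 between 4886 and 6817 CPM in control and between 5662 and 6118 CPM in LL37 + RAPA. Some libraries stood apart within their group. Control replicate 3 held more inflammatory transcript than the other control libraries, with Il1b at 1.62, 0.461 and 20 CPM in control replicates 1, 2 and 3 and S100a8 at 2.64, 2.10 and 24.5 CPM. LL37 replicate 3 lay between the other LL37 libraries and the LL37 + RAPA libraries on the first principal component (64.4, against 129 and 133 for the other LL37 libraries). The LL37 + RAPA libraries lay at 0.527 to 29.8 on that component, which held 68.3% of the variance, and control libraries at −62.6 to −50.2. On the second component, with 8.61% of the variance, LL37 + RAPA lay at −45.4 to −37.4 and the other 9 libraries at −4.05 to 33.1.

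A total of 1168 of 17993 tested genes (6.49%) were differentially expressed genes (DEGs) between LL37 + RAPA and control, called where the Benjamini-Hochberg adjusted p of edgeR's quasi-likelihood test was under 0.05 and the log2 fold change beyond 1 in either direction. Of these, 386 were higher (2.15% of tested genes) and 782 lower (4.35%). The split depended on scaling, since 559 were higher and 694 lower when libraries were scaled by their totals alone, which moved the median of all genes to 0.13 on the log2 scale, and 321 were higher and 422 lower among genes with 10 counts in every library. Of all DEGs 33.0% were higher, against 22.6% without LL37 + RAPA replicate 2 and 20.1% without control replicate 2. The libraries of the groups did not overlap for 1161 of the DEGs (6.45% of tested genes), beside 36.4% of all tested genes whose libraries did not overlap. In the same fit, LL37 without RAPA differed from control in 3516 genes (19.5%), 8.73% of tested genes being higher and 10.8% lower. LL37 + RAPA differed from control + RAPA in 1510 genes (8.39%), 4.07% higher and 4.32% lower. LL37 differed from LL37 + RAPA in 1823 genes (10.1%), 4.33% higher and 5.8% lower in LL37. The response to LL37 differed between mice with and without RAPA, by the interaction term of the same fit, in 429 genes (2.38%). The term is the response with RAPA minus that without it, and was positive for 312 genes (1.73%) and negative for 117 (0.65%). A positive term can mean a smaller fall as well as a larger rise. Control + RAPA held 0 DEGs (0.0%) against control by edgeR, with 1556 genes (8.65%) at an unadjusted p under 0.05, and calls by another tool were not recorded for that contrast.

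The 1168 DEGs fell into 3 classes by where LL37 without RAPA stood. The class sizes describe the fit and carry no test, because both comparisons share the control libraries. For 890 DEGs, 241 higher and 649 lower, LL37 + RAPA stood on the same side of control as LL37 but nearer to control. Those 649 lower genes had a median log2 fold change of −2.24 against control, where LL37 had −3.66. For 247 DEGs, 124 higher and 123 lower, LL37 + RAPA stood on the same side and farther from control than LL37 did. For 31 DEGs, 21 higher and 10 lower, LL37 + RAPA stood on the other side of control from LL37. Against control + RAPA, the group given the same drug, 967 of the 1168 were also DEGs in the same direction, 310 higher and 657 lower. This count carries no test either, because both comparisons share the LL37 + RAPA libraries.

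**Figure D1:**
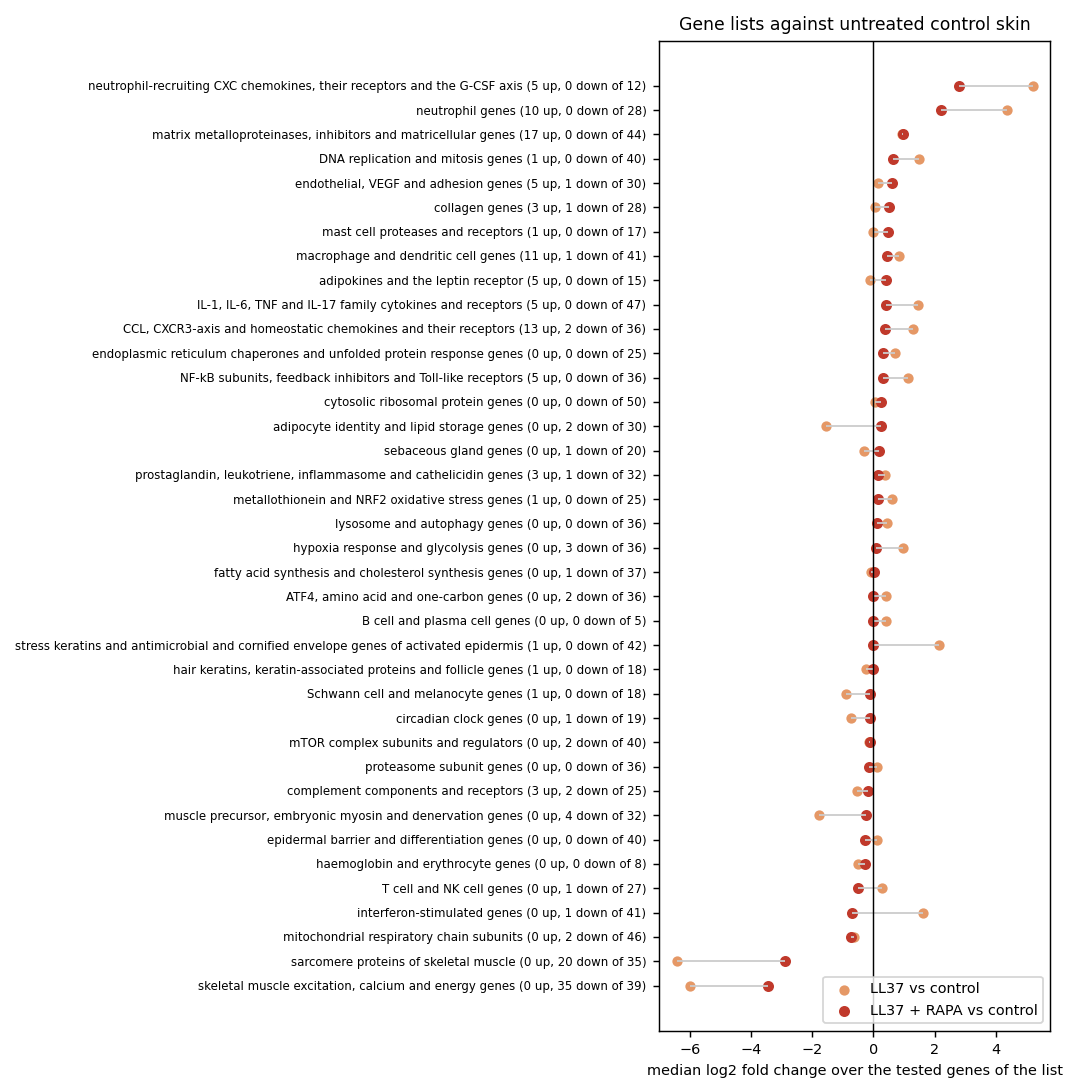
Median log2 fold change against control over the tested genes of each of 38 gene lists, for LL37 (orange) and LL37 + RAPA (red), with the number of LL37 + RAPA DEGs in each list in its label. Both skeletal muscle lists lie far below 0, at −2.90 and −3.44 in LL37 + RAPA, and the neutrophil lists lie far above it, at 2.79 and 2.21.

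The plot of list medians shows the residual change within the chosen gene lists only. These lists held 167 of the 1168 DEGs, 84 of the 386 higher and 83 of the 782 lower. Most DEGs therefore lay outside the lists and were not assigned to a program. The lists of skeletal muscle held lower DEGs, those of neutrophils, monocyte chemokines and matrix remodelling held higher DEGs, and most lists of epidermis, fat, growth and housekeeping held few DEGs. Over all tested genes the median log2 fold change was 0.00480. Of all tested genes 2.15% were higher DEGs and 4.35% lower DEGs, the shares beside which the list counts below stand.

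The medians of the skeletal muscle lists were the lowest of the 38. Of 35 tested genes for proteins of the sarcomere, the contractile unit, 20 fell and none rose, with a median log2 fold change of −2.90. Of 39 genes for muscle excitation, calcium handling and energy supply, 35 fell and none rose, with a median of −3.44. In LL37 without RAPA, 32 and 38 of these genes were lower than control, with medians of −6.43 and −6.00. The 77 genes of both lists took 7.58% ± 1.23 (SD, n = 3) of all counts in control and 1.05% ± 0.324 (SD, n = 3) in LL37 + RAPA, and the libraries did not overlap (two-sided exact permutation p = 0.1, the smallest that 3 against 3 can give). The share was 0.258% in LL37 and 7.86% in control + RAPA.

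The promoters of Ckm and Tpm2, from these lists, and of Gys1, glycogen synthase, are printed because the letters CAGCTG, an E-box of the kind bound by myogenic factors, stand in their 300-base windows. The windows run from 250 bases before to 50 bases after the RefSeq gene start on GRCm38.p6 and are written 5′ to 3′ on the gene's strand, with CAGCTG and, in the pair printed further on, TGANTCA in capitals. Both motifs read the same on either strand, and no matches overlapped.
Ckm, chr7:19410844-19411143, plus strand: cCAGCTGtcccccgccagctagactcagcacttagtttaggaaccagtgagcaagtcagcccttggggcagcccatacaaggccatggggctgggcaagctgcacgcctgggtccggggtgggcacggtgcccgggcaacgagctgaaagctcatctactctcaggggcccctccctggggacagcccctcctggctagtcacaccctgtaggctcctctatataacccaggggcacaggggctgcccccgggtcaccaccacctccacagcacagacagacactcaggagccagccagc
Tpm2, chr4:43523505-43523804, minus strand: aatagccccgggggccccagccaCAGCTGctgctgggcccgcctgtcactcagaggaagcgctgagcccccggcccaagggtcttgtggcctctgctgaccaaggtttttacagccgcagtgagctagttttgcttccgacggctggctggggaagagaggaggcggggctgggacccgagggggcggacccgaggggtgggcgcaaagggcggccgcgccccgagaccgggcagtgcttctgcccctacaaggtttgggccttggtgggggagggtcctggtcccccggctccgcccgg
Gys1, chr7:45434589-45434888, plus strand: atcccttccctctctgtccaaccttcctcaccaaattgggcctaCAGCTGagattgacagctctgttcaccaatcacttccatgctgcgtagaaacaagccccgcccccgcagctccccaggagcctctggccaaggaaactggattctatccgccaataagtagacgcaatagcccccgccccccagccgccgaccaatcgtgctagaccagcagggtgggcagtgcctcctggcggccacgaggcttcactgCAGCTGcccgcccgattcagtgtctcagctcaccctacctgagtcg
Of the 74 tested muscle genes, 54 had a window, and 27 of these genes (50%) had CAGCTG in a window. So did 18.9% of the 12459 tested genes with a window and 18.3% of all 27025 genes with a window. A gene with several starts was counted if any of its windows held the motif. A match describes the letters of the window and is not a measured binding site.

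Prkaa2 (ENSMUSG00000028518, chr4:105029874-105109890 on GRCm38, minus strand) encodes a catalytic subunit of AMPK, the energy sensor that restrains mTORC1, in the form most abundant in muscle. Its level was 58.6, 45.0 and 50.8 CPM in control and 8.97, 7.57 and 8.88 CPM in LL37 + RAPA. Every LL37 + RAPA library lay far under every control library, a log2 fold change of −2.60 (SE 0.12, adjusted p = 8.34e-07, edgeR). LL37 without RAPA stood lower still, at 4.74, 4.23 and 4.10 CPM, and control + RAPA stood at 49.3 to 49.8 CPM.

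Tpm2 encodes beta-tropomyosin, which lies along the thin filament. It had 3004, 2422 and 2727 CPM in control and 449, 244 and 340 CPM in LL37 + RAPA. The groups did not overlap, with a log2 fold change of −2.98 (SE 0.27, adjusted p = 3.62e-05, edgeR). Myoz1, a Z-disc protein of fast fibres, went from 450, 351 and 487 CPM to 41.2, 16.7 and 24.3 CPM (−3.97, SE 0.50). Its level in LL37 was between 0.490 and 3.53 CPM, so that RAPA skin lay between LL37 and control.

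Scn4b, a subunit of voltage-gated sodium channels, had 130, 97.7 and 96.2 CPM in control. In LL37 + RAPA it had 5.08, 2.05 and 3.43 CPM, 30.9-fold lower by the fitted change and without overlap. LL37 without RAPA had 0.109 to 0.707 CPM, below every LL37 + RAPA library.

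Acta1, skeletal alpha-actin, had 14778, 9409 and 11951 CPM in control and 2321, 1176 and 1658 CPM in LL37 + RAPA, yet it did not pass the test (−2.81, adjusted p = 0.159, edgeR). Its adjusted p was 0.0394 with DESeq2, 0.000118 with LL37 replicate 3 left out of the fit and 0.000525 with only these 2 groups in it. Ckm, muscle creatine kinase, went from between 1777 and 2727 CPM to between 149 and 363 CPM (−3.27, adjusted p = 0.0467), and without any 1 of the 6 libraries its adjusted p was 0.0725 to 0.176. The sarcomere list held 11 lower DEGs without LL37 + RAPA replicate 2 or replicate 3, and 30 with LL37 replicate 3 left out of the fit. Among genes with 10 counts in every library, 13 of 20 in that list fell, and 22 of 25 in the excitation list.

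**Figure D2:**
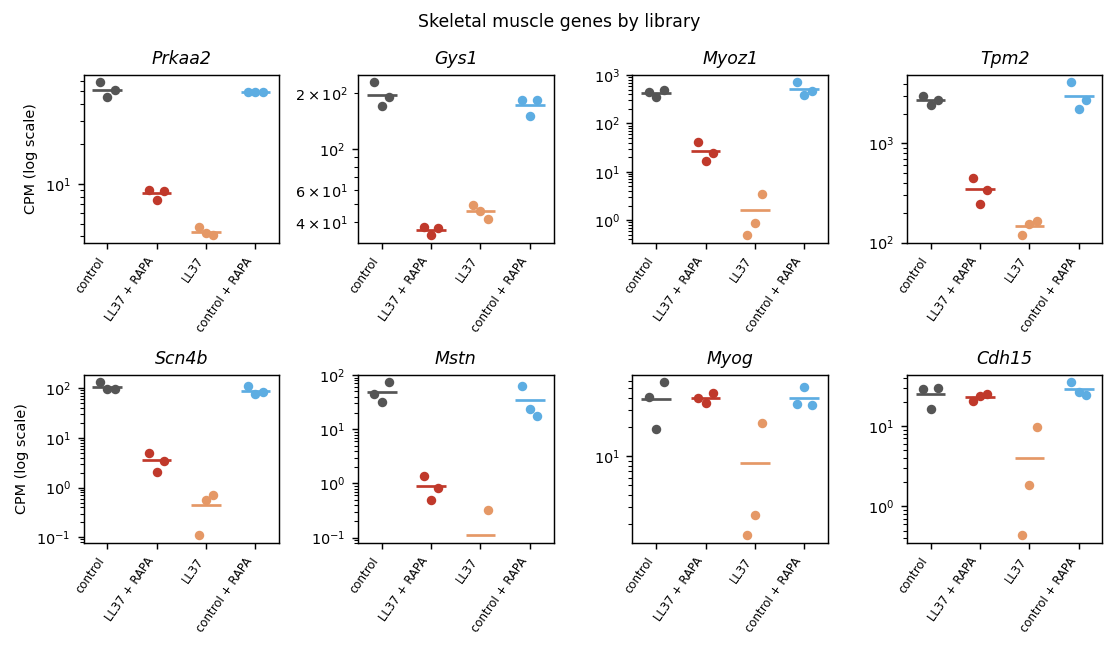
CPM on a log scale for 8 muscle genes in each library of the 4 groups, with a line at the group mean, and libraries with no count not drawn. Mature muscle genes such as Prkaa2, Tpm2 and Scn4b lie below control in all 3 LL37 + RAPA libraries, while Myog and Cdh15 lie within the control range.

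Genes of muscle precursors held fewer DEGs. Of 32 tested genes for precursors, embryonic myosins and denervation, 4 fell and none rose, with a median of −0.25, while 8 fell and 1 rose with LL37 replicate 3 left out of the fit. The summed share of counts of the list was 0.106 to 0.152% in control and 0.0661 to 0.0873% in LL37 + RAPA. These shares did not overlap (two-sided exact permutation p = 0.1, the smallest that 3 against 3 can give). Myog, which drives the last step of muscle differentiation, had 40.9, 19.1 and 57.6 CPM in control and 39.9, 35.7 and 44.4 CPM in LL37 + RAPA, inside the control range (0.03, SE 0.69). Cdh15, the cadherin of satellite cells and myoblasts, had 28.6, 16.1 and 30.0 CPM in control and 20.4, 23.8 and 24.7 CPM in LL37 + RAPA (−0.12, SE 0.60). Both were low in LL37 without RAPA, where Cdh15 had 0.435, 1.84 and 9.84 CPM.

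Mstn encodes myostatin, the secreted brake on muscle growth, and had 44.5, 31.4 and 73.1 CPM in control and 1.38, 0.491 and 0.811 CPM in LL37 + RAPA, a log2 fold change of −5.81 (SE 0.65, adjusted p = 0.00015, edgeR) without overlap. Fbxo32 and Trim63 encode the ubiquitin ligases atrogin-1 and MuRF1 of muscle atrophy. Fbxo32 had 206 to 332 CPM in control and 61.5 to 71.5 CPM in LL37 + RAPA (−2.11, SE 0.36), while the call of Trim63 (−2.79) was lost without any library except control replicate 2, with adjusted p up to 0.143. Chrne, the adult subunit of the acetylcholine receptor, fell to between 0.270 and 0.617 CPM from between 3.11 and 4.04 CPM.

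Several genes of fuel use also stayed low. Gys1 (ENSMUSG00000003865, chr7:45434844-45456619, plus strand), the glycogen synthase of muscle and other tissues, had 230, 171 and 190 CPM in control and 37.8, 34.1 and 37.1 CPM in LL37 + RAPA. The groups did not overlap (−2.44, SE 0.13, adjusted p = 2.57e-06, edgeR), and LL37 had 49.9, 46.3 and 41.5 CPM, above all LL37 + RAPA libraries. The difference between LL37 and LL37 + RAPA did not pass the test (0.34, adjusted p = 0.0703). Gys1 overlaps Ruvbl2 on the other strand, and the library kit does not mark strand, so reads in the overlap cannot be told apart.

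Vldlr, a lipoprotein receptor that takes up lipid in muscle and fat, had 93.5, 57.0 and 81.9 CPM in control. It had 13.0, 11.5 and 13.5 CPM in LL37 + RAPA and between 18.3 and 24.4 CPM in LL37, so the RAPA libraries were the lowest of the 3 groups (−2.62 against control, SE 0.19). Slc2a4, the insulin-responsive glucose transporter GLUT4, fell from between 86.2 and 112 CPM to between 24.0 and 25.6 CPM (−2.02, SE 0.23, adjusted p = 0.000171).

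Glycolysis and the hypoxia response gave a mixed picture. Of 36 tested genes, 3 fell and none rose, with a median of 0.09, where LL37 without RAPA had 18 higher and none lower and a median of 0.96. With DESeq2 5 fell, and with library totals alone 2 rose. The 3 were Hk2, hexokinase 2, at −1.44, Tpi1, triosephosphate isomerase, at −1.21 and Ldha, lactate dehydrogenase A, at −1.14. Ldha had 1306, 1109 and 1363 CPM in control and 542, 598 and 569 CPM in LL37 + RAPA (SE 0.16, adjusted p = 0.000607, edgeR). LL37 had 956 to 1236 CPM and did not pass the test against control (−0.15, adjusted p = 0.481), and LL37 exceeded LL37 + RAPA by 1.00 on the log2 scale (adjusted p = 0.00230).

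Slc2a1, the glucose transporter GLUT1, had 65.9 to 100 CPM in control, 87.5 to 117 CPM in LL37 + RAPA and 263 to 531 CPM in LL37, and it was 0.27 from control in LL37 + RAPA (SE 0.24). Car9, carbonic anhydrase 9, was 0.88 above control (adjusted p = 0.0170), short of the fold limit, and 3.22 above it in LL37. Vegfa, the main growth factor of blood vessels, had 139, 109 and 126 CPM in control and 71.1, 88.6 and 86.7 CPM in LL37 + RAPA, with no overlap but without passing the test (−0.60, adjusted p = 0.0727). Gapdh was not read as a result, since it ranged from 10.2 to 258 CPM within the control group and has many near-identical copies in the genome.

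**Figure D3:**
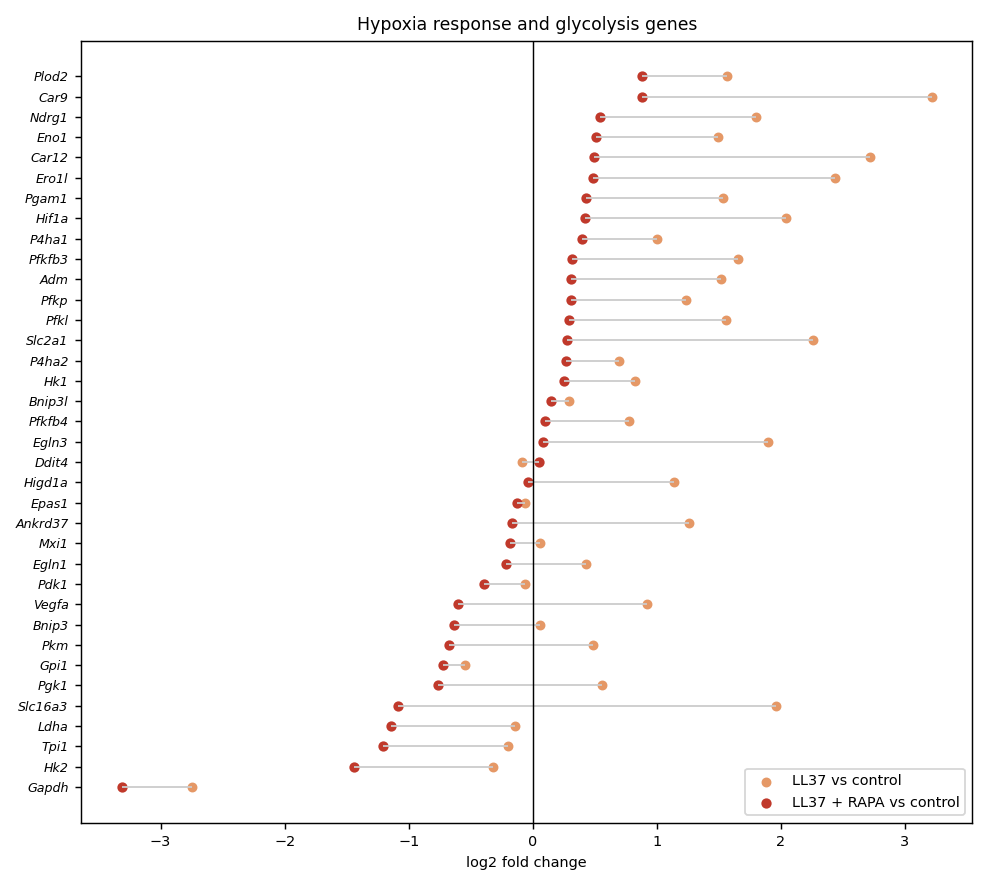
Log2 fold change against control of the 36 tested hypoxia and glycolysis genes, for LL37 (orange) and LL37 + RAPA (red). Hk2, Tpi1 and Ldha lie at −1.44, −1.21 and −1.14 in LL37 + RAPA and between −0.32 and −0.15 in LL37.

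Subunits of the mitochondrial respiratory chain were lower by a small amount across the list. Of 46 tested genes, 44 had an adjusted p under 0.05 with a lower level, of which Atp5g1 and Cox5a passed the fold limit, and the median was −0.73. Over all 17993 tested genes, 1622 were lower at that adjusted p without the fold limit. Atp5g1, a subunit of the ATP synthase ring, had 124, 126 and 118 CPM in control and 50.6, 44.4 and 45.0 CPM in LL37 + RAPA (−1.40, SE 0.17). The call of Cox5a (−1.08) did not hold with scaling by library totals alone, while 7 genes were lower DEGs without control replicate 3, 6 without LL37 + RAPA replicate 1 and 5 without LL37 + RAPA replicate 2. Ogdh, part of the 2-oxoglutarate dehydrogenase complex, had 447, 434 and 381 CPM in control and 185, 177 and 176 CPM in LL37 + RAPA (−1.23, SE 0.09, adjusted p = 9.94e-06), and its LL37 level was 166 to 194 CPM. The muscle share of counts in the same libraries was 0.732 to 1.38%, against 6.23 to 8.65% in control, and its part in the mitochondrial values was not tested.

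Genes of mTOR complexes and their regulators held 2 DEGs of 40, both lower, with a median of −0.11. This was near the share over all tested genes, of which 6.49% were DEGs and 4.35% lower DEGs. Rragd encodes a Rag GTPase that carries the amino acid signal to mTORC1, and it had 79.5, 57.4 and 83.2 CPM in control and 8.02, 6.96 and 8.84 CPM in LL37 + RAPA (−3.21, SE 0.28, adjusted p = 2.35e-05, edgeR). LL37 stood below both, at 1.03 to 3.20 CPM. Castor2, of the arginine sensor family, was the other (−1.22). None of 50 ribosomal protein genes, 25 endoplasmic reticulum chaperones, 36 proteasome subunits or 36 lysosome and autophagy genes was a DEG by edgeR. At an adjusted p under 0.05 without the fold limit, 905 of all 17993 tested genes were higher and 1622 lower. By that measure 5 ribosomal genes, 2 chaperones and 1 lysosome gene were higher, and 5 proteasome and 3 lysosome genes were lower. By DESeq2 these lists also held 0 DEGs, while 1 lysosome gene was a higher DEG without control replicate 1 and 1 a lower DEG without control replicate 2. Among 36 ATF4 and amino acid genes, Vldlr and Chac1, a glutathione-degrading enzyme (−2.39, SE 0.21), fell.

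Chemokines and their receptors held mostly higher DEGs. Of 36 tested genes for monocyte, T cell and homeostatic chemokines and receptors, 13 rose and 2 fell, with a median of 0.38. Of 12 genes for neutrophil-recruiting chemokines, their receptors and the G-CSF axis, 5 rose and none fell, with a median of 2.79, or 2.42 with Cxcr1, whose control counts were at the floor, set at its bound. LL37 had 17 and 11 genes higher in these lists. The first list held 9 higher DEGs without control replicate 3, and no gene of it was a lower DEG without control replicate 1 or 3 or LL37 + RAPA replicate 2 or 3. The second held 9 with LL37 replicate 3 left out of the fit.

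Ccl6 and Ccl9 encode CC chemokines of mouse myeloid cells that act on the receptor Ccr1. Ccl6 (ENSMUSG00000018927, chr11:83587882-83593087, minus strand) had 146, 77.2 and 106 CPM in control and 467, 721 and 431 CPM in LL37 + RAPA. All 3 RAPA libraries lay above all controls and above the LL37 libraries, at 296, 390 and 363 CPM, and the change against control was 2.30 (SE 0.30, adjusted p = 0.000420, edgeR). The difference between LL37 and LL37 + RAPA did not pass the test (−0.63, adjusted p = 0.134). Ccl9 had 101, 48.3 and 65.8 CPM in control and 261, 430 and 261 CPM in LL37 + RAPA (2.15, SE 0.32), beside 198 to 308 CPM in LL37. Ccr1 followed, from between 2.56 and 5.82 CPM to between 28.3 and 63.3 CPM (3.19, SE 0.50).

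Ccl2, the main ligand of the monocyte receptor Ccr2, had 27.2, 6.05 and 13.9 CPM in control and 73.5, 121 and 55.9 CPM in LL37 + RAPA, within the LL37 range of 68.6 to 138 CPM except for replicate 3 (2.41, SE 0.50, adjusted p = 0.00732). Cxcl12, the homeostatic chemokine of stroma, was 1.08 higher (SE 0.22), a call that fell short of the fold limit without control replicate 3 or LL37 + RAPA replicate 2.

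Cxcl5 and Ppbp, ligands of the neutrophil receptor Cxcr2, had the highest log2 fold changes of both lists, with Ppbp at 4.89. Cxcl5 had 1.56, 0.103 and 0.632 CPM in control and 8.21, 40.8 and 26.4 CPM in LL37 + RAPA, with LL37 + RAPA replicate 1 lowest but above every control (5.05, SE 1.01, adjusted p = 0.00597). LL37 held 34.4 to 371 CPM. Csf3r, the G-CSF receptor of neutrophils, had 9.44, 3.64 and 12.3 CPM in control and 38.0, 146 and 123 CPM in LL37 + RAPA (3.60, SE 0.68, adjusted p = 0.00428, edgeR). Cxcl1 (1.88), Cxcl2 (0.72) and Cxcl3 (2.99) did not pass the test, and for Cxcl2 the groups overlapped, with 2.59, 1.18 and 20.4 CPM in control and 4.89, 30.2 and 4.46 CPM in LL37 + RAPA.

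Both genes that fell in the chemokine list attract lymphocytes. Cxcl13, which draws B cells, had 29.2, 11.4 and 27.9 CPM in control and 9.06, 8.97 and 6.58 CPM in LL37 + RAPA (−1.48), and Cxcl9, an interferon-induced ligand of Cxcr3, a chemokine receptor of T cells, was at −1.82. These calls were lost without 5 and 4 of the 6 libraries in turn, control replicate 1, control replicate 3 and LL37 + RAPA replicates 2 and 3 for both and LL37 + RAPA replicate 1 for Cxcl13, with adjusted p up to 0.120 and 0.108.

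The promoter of Ccl9 is printed from the chemokines and that of Mmp12 from the matrix proteases, because TGANTCA, the core of the AP-1 site, stands in both windows. The share of chemokine genes with this motif was not counted, so Ccl9 does not stand for them.
Ccl9, chr11:83578587-83578886, minus strand: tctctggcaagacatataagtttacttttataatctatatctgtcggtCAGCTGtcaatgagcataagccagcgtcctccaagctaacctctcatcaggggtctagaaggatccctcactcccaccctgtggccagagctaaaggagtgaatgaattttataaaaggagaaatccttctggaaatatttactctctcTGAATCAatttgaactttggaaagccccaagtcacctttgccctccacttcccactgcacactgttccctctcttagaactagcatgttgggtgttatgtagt
Mmp12, chr9:7347124-7347423, plus strand: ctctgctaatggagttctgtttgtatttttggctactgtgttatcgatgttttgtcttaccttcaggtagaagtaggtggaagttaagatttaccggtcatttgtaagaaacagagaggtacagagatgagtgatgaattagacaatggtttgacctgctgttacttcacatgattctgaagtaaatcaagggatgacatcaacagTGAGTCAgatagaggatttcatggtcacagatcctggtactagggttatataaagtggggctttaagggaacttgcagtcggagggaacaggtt
Mmp12 has 2 annotated starts, and the window of the other start holds neither motif. Of the 44 tested matrix genes, 28 had a window, and 7 of these genes (25%) had TGANTCA in a window. So did 7.23% of tested genes with a window and 9.26% of the muscle genes with a window.

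Lists of myeloid cells also held higher DEGs. Of 28 neutrophil genes, 10 rose and none fell, with a median of 2.21, among them Itgam, an integrin chain of myeloid cells (2.22, SE 0.34), and Mmp8, neutrophil collagenase (4.10). With LL37 replicate 3 left out of the fit, 17 of 30 tested rose. The summed share of the neutrophil list was 0.0170 to 0.0441% of counts in control, 0.0612 to 0.127% in LL37 + RAPA and 0.125 to 0.555% in LL37. S100a8, the abundant calcium-binding protein of neutrophils and stressed keratinocytes, had 2.64, 2.10 and 24.5 CPM in control and 13.4, 54.9 and 65.5 CPM in LL37 + RAPA and passed the test only without control replicate 3 (4.23, adjusted p = 0.0372). Camp, the mouse cathelicidin gene, was at 0.564 CPM or less in every control and LL37 + RAPA library.

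Of 41 macrophage and dendritic cell genes, 11 rose and 1 fell, with a median of 0.43. Spp1 (ENSMUSG00000029304, chr5:104435118-104441050, plus strand), which encodes osteopontin, had 13.7, 5.74 and 17.8 CPM in control and 93.3, 241 and 201 CPM in LL37 + RAPA, 14.4-fold higher and without overlap (3.85, SE 0.53, adjusted p = 0.000555, edgeR). Lyz2, lysozyme of myeloid cells, went from between 343 and 503 CPM to between 926 and 1699 CPM (1.58).

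Adgre1, the F4/80 antigen, had 47.3, 27.5 and 37.1 CPM in control and 30.6, 51.7 and 39.4 CPM in LL37 + RAPA (0.12, SE 0.29), while LL37 had 83.7 to 155 CPM. Csf1r differed by 0.36 (SE 0.20) and C1qa by 0.11 (SE 0.22). Timd4, a marker of resident macrophages, fell from between 3.08 and 5.37 CPM to between 0.451 and 1.84 CPM (−2.03, SE 0.46).

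**Figure D4:**
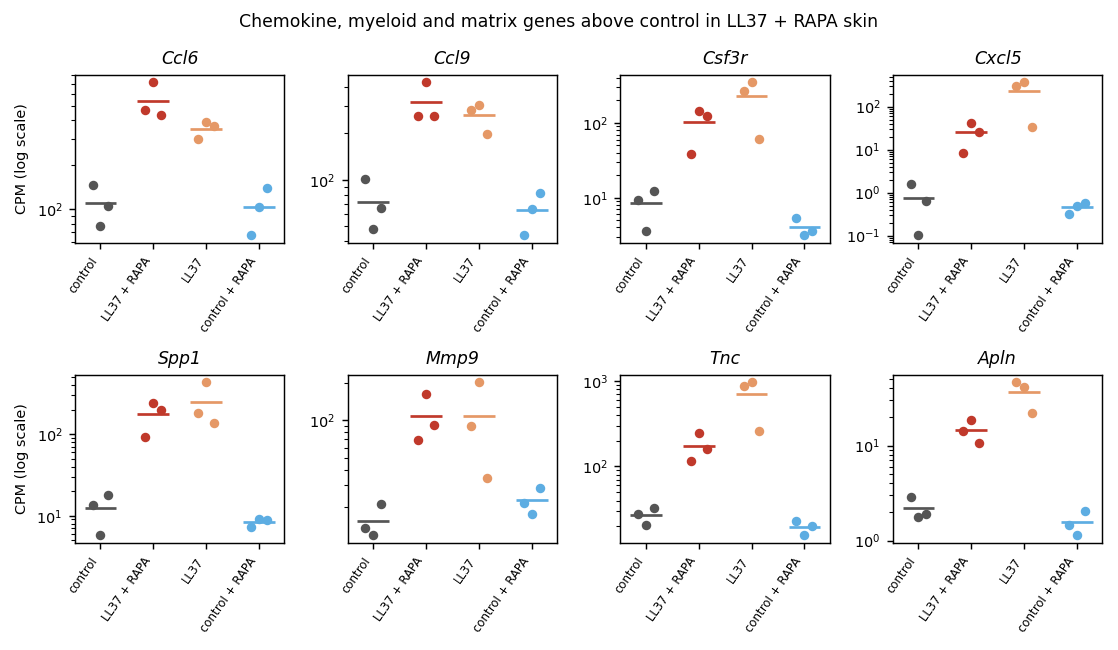
CPM on a log scale for 8 chemokine, myeloid and matrix genes in each library of the 4 groups, with a line at the group mean. All 3 LL37 + RAPA libraries lie above all 3 control libraries for each gene, and Ccl6 lies highest in LL37 + RAPA.

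Matrix remodelling genes were the other list with many higher DEGs. Of 44 tested genes for matrix metalloproteinases, inhibitors and matricellular proteins, 17 rose and none fell, with a median of 0.97, beside 21 higher and 3 lower and a median of 0.95 in LL37. The number that rose was 8 without LL37 + RAPA replicate 2, 9 without control replicate 2 10 without control replicate 3 and 11 with the replicate number as a block. Mmp9 (ENSMUSG00000017737, chr2:164940780-164955850, plus strand), gelatinase B, had 13.7, 11.9 and 21.2 CPM in control and 69.9, 161 and 90.9 CPM in LL37 + RAPA (2.78, SE 0.54, adjusted p = 0.00533, edgeR). LL37 had 89.2, 200 and 34.7 CPM, so the 2 groups overlapped, with a difference of 0.01 (adjusted p = 0.996).

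Tnc encodes tenascin C, a matrix protein of wounds. It had 27.7, 20.9 and 32.7 CPM in control, 115, 244 and 159 CPM in LL37 + RAPA and 256 to 957 CPM in LL37, and it rose by 2.67 (SE 0.44, adjusted p = 0.00180). Adamts5, an aggrecan-cleaving protease, was beyond the LL37 level, with 42.0, 31.0 and 30.3 CPM in control, 63.0, 94.0 and 78.3 CPM in LL37 + RAPA and 38.2 to 54.3 CPM in LL37 (1.19, SE 0.20).

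Among 28 collagen genes, 3 rose and 1 fell, with a median of 0.52, and 11 rose without control replicate 1, 7 without LL37 + RAPA replicate 1 or with library totals alone and 2 without control replicate 2 or 3 or LL37 + RAPA replicate 3. Col12a1, a collagen of stretched and healing tissue, had 37.7, 27.9 and 33.2 CPM in control and 75.9, 99.3 and 99.2 CPM in LL37 + RAPA (1.47, SE 0.16, adjusted p = 9.97e-05). Col8a1 rose by 1.55 and Col4a1, of basement membranes, by 1.10, the latter not called without control replicates 2 or 3 or LL37 + RAPA replicates 2 or 3 (adjusted p up to 0.0939). Col22a1, a collagen of muscle-tendon junctions, fell at least 13.2-fold to a group in which each library held at most 3 counts. The main fibrillar genes did not pass the test, with Col1a1 at 0.39 and Col3a1 at 0.79, but against control + RAPA 11 collagen genes were higher, Col3a1 among them at 1.62 (adjusted p = 0.00172).

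Of 30 endothelial and VEGF genes, 5 rose and 1 fell, with a median of 0.62, and 3 rose without control replicate 2 or LL37 + RAPA replicate 3. Apln, a ligand made by sprouting vessels, had 2.86, 1.79 and 1.90 CPM in control and 14.4, 18.8 and 10.6 CPM in LL37 + RAPA (2.74, SE 0.34, adjusted p = 0.000262). Its receptor Aplnr rose by 1.63 and Angpt2, which loosens vessel walls, by 1.91. Plvap, of the endothelial diaphragm, was called against control (1.05) with 125 to 155 CPM in control, 228 to 322 CPM in LL37 + RAPA and 119 to 173 CPM in LL37, while control + RAPA had 119 to 238 CPM, and its difference between LL37 and LL37 + RAPA was −1.03 (adjusted p = 0.0104). Its call against control was lost without control replicate 2 or LL37 + RAPA replicate 3, with log2 fold changes down to 0.94. Pecam1 (0.61) and Cdh5 (0.44), carried by all endothelium, did not pass the test, and Vegfb fell (−1.19, SE 0.13).

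Among 15 adipokine and related genes, 5 rose and none fell, with a median of 0.40, and 3 rose without control replicate 2 or 3 or LL37 + RAPA replicate 2. Apln, counted above with the endothelial genes, was among the 5. Rarres2 encodes chemerin, a chemoattractant made in fat and skin, and had 129, 62.5 and 92.1 CPM in control and 206, 369 and 287 CPM in LL37 + RAPA (1.60, SE 0.29, adjusted p = 0.00358). All LL37 + RAPA libraries lay above the controls, and LL37 had 183 to 272 CPM. Among 25 complement genes, 3 rose and 2 fell, with a median of −0.19. The receptors of the C5a fragment were among those that rose, C5ar1 by 2.07 and C5ar2, whose control counts were at the floor, at least 8.25-fold. Among 32 eicosanoid and kallikrein genes, 3 rose and 1 fell, with a median of 0.16, and Alox5ap, which presents arachidonate to 5-lipoxygenase, was called in all 6 fits without 1 library (1.58, SE 0.23). The number that rose in this list was 1 without control replicate 2 or 3 or LL37 + RAPA replicate 2, and none fell without control replicate 3 or LL37 + RAPA replicate 2 or 3. No complement gene fell without LL37 + RAPA replicate 2 or 3, 1 did without control replicate 1, and 2 rose without control replicate 2 or 3 or LL37 + RAPA replicate 2.

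Cytokine genes held few DEGs. Of 47 tested genes in the list of IL-1, IL-6, TNF and IL-17 families, 5 rose, the receptors Il17ra, Il1r1 and Il4ra and the TNF family ligands Ltb and Tnfsf14, where LL37 had 29 higher and 1 lower. Il4ra stands in the list but belongs to none of the named families. Of the 47, 1 rose without control replicate 2 or LL37 + RAPA replicate 2 or 3, 2 without control replicate 1, 3 without control replicate 3 and 8 with LL37 replicate 3 left out of the fit. Tnfsf14 was called in all 6 fits without 1 library (4.06). The calls of Il17ra and Il1r1 were lost without any library except LL37 + RAPA replicate 1, and that of Ltb without control replicate 2 or LL37 + RAPA replicates 2 or 3, with adjusted p up to 0.119. Il1b had 1.62, 0.461 and 20 CPM in control and 2.56, 16.6 and 9.69 CPM in LL37 + RAPA, so the groups overlapped (0.40, SE 1.25), and it had 17.0 to 289 CPM in LL37. With an SE this wide, a residual change of several fold in Il1b was not detectable. Tnf had 1.78, 1.44 and 5.74 CPM in control and 2.09, 3.03 and 3.52 CPM in LL37 + RAPA (−0.05, SE 0.56).

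Il6 had 0.324, 0.103 and 0.211 CPM in control and 1.19, 3.56 and 1.35 CPM in LL37 + RAPA, a log2 difference of 3.24 (SE 1.18, adjusted p = 0.0942) that did not pass the test, and 1.51 to 40.5 CPM in LL37. It was called in 5 of 16 other settings, with an adjusted p of 0.0142 with DESeq2 and 0.00253 with LL37 replicate 3 left out of the fit. Of 36 NF-κB subunits, inhibitors and Toll-like receptors, 5 rose with a median of 0.32, and 1 did with the replicate number as a block or without any 1 of the 6 libraries except LL37 + RAPA replicate 1. Tlr13, a receptor of bacterial RNA in myeloid cells, had 4.41 to 8.43 CPM in control and 14.7 to 35 CPM in LL37 + RAPA (1.76, SE 0.37), a call made in every setting tried. Tlr2 did not pass (0.72, adjusted p = 0.399).

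Interferon-stimulated genes held 1 DEG. Of 41 tested genes, 38 had a log2 fold change under 0, with a median of −0.70, and Iigp1, an immunity GTPase, was the DEG (−1.35, adjusted p = 0.0459). Its call was lost without any library except control replicate 2 (adjusted p up to 0.185). The number of lower DEGs was 6 without control replicate 2, 5 with the LL37 libraries left out of the fit, 4 with the replicate number as a block, 3 with DESeq2 and 0 without any other of the 6 libraries. Without control replicate 1, 1 gene was a higher DEG. The median ranged from −0.98 to −0.33 over the settings tried. In LL37 without RAPA, 28 of the 41 were higher, with a median of 1.62. Rsad2, an antiviral enzyme, had 7.66, 2.77 and 29.1 CPM in control and 4.41, 1.92 and 5.72 CPM in LL37 + RAPA, and the high value lay in control replicate 3. Against control + RAPA the median of the list was 0.67, so the sign depended on which control group was used.

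By edgeR 0 of 40 barrier and differentiation genes were DEGs, with 1 lower at an adjusted p under 0.05 without the fold limit. There was 1 lower DEG by DESeq2, and 2 without LL37 + RAPA replicate 1 or with only these groups in the fit. The barrier list took 4.25% ± 0.617 (SD, n = 3) of counts in control and 4.21% ± 0.159 (SD, n = 3) in LL37 + RAPA. Of 42 genes of activated epidermis, 1 rose, Slpi, a protease inhibitor (2.50), where LL37 had 29 higher. Krt16, a stress keratin, had 24.4, 36.6 and 299.8 CPM in control, 52.1, 126 and 235 CPM in LL37 + RAPA and 1425 to 3772 CPM in LL37. The median of the list was −0.01 with all controls and 1.41 without control replicate 3, when 6 genes rose. The call of Slpi was lost without control replicates 1 or 2 or LL37 + RAPA replicates 2 or 3, with adjusted p up to 0.0590.

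Among DNA replication and mitosis genes all 40 tested genes had a log2 fold change above 0, with a median of 0.64. Of these, 10 had an adjusted p under 0.05, where 905 of all 17993 tested genes were higher at that adjusted p. Mcm10, a replication initiation factor, was the only DEG (1.25), beside 6 with scaling by library totals alone. Its call was lost without control replicates 1 or 2 or LL37 + RAPA replicates 2 or 3 (adjusted p up to 0.0956). LL37 had 35 of the 40 higher. Against control + RAPA, 20 of the 40 were higher, with a median of 1.08. Mki67, the proliferation antigen, had 25.3, 41.4 and 38.6 CPM in control, 52.8, 53.3 and 56.8 CPM in LL37 + RAPA and 35.8, 14 and 24.2 CPM in control + RAPA.

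Fat genes were lower in LL37 and mostly not in LL37 + RAPA. In LL37 without RAPA, 23 of 30 adipocyte and lipid storage genes were lower than control, with a median of −1.57, and in LL37 + RAPA 2 were, Slc2a4 and Car3, with a median of 0.25. Adipoq, adiponectin, had 149, 68.1 and 92.0 CPM in control and 161, 167 and 145 CPM in LL37 + RAPA (0.61, SE 0.39, adjusted p = 0.356), beside 13.9 to 41.3 CPM in LL37. Car3, carbonic anhydrase 3 of muscle and fat, had 2076 to 2945 CPM in control and 862 to 1017 CPM in LL37 + RAPA (−1.34), and its adjusted p was 0.0603 to 0.120 without any 1 library. T cell and NK cell genes held 1 DEG of 27, Gzma, and a median of −0.49. The summed share of counts of the 34 genes of the list in the table went the other way, from 0.0154 to 0.0174% in control to 0.0223 to 0.0285% in LL37 + RAPA, without overlap (two-sided exact permutation p = 0.1, the smallest that 3 against 3 can give). Thy1, which fibroblasts carry as well as T cells, was 0.90 above control (adjusted p = 0.0224), short of the fold limit. Of 37 lipogenesis genes Mlxipl, a glucose-responsive factor, fell (−1.40), a call lost without LL37 + RAPA replicate 2 or 3 (adjusted p up to 0.0549). Of other lists, mast cell, Schwann and melanocyte, sebaceous gland, hair follicle and oxidative stress genes held 1 DEG each (Kit, Ngfr, Cd5l, Dsg4 and Slc39a14). These lists had 17, 18, 20, 18 and 25 tested genes, and 6.49% of all tested genes were DEGs. B cell and erythrocyte genes held none by edgeR, with none of the 5 B cell genes and 1 of the 8 erythrocyte genes at an adjusted p under 0.05. By DESeq2, or with LL37 replicate 3 left out, 1 B cell gene was a lower DEG, and 1 erythrocyte gene was without control replicate 2 or 3. Cd5l stands in the sebaceous gland list but is also known as a product of macrophages, and the other 19 genes of that list were not DEGs. The calls were lost for Kit without control replicates 2 or 3 or LL37 + RAPA replicates 1 or 2 (adjusted p up to 0.115), for Dsg4 without any library but LL37 + RAPA replicate 2 (0.127), for Slc39a14 without any but LL37 + RAPA replicate 1 (0.0868) and for Gzma without any but control replicate 2 (0.17).

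**Figure D5:**
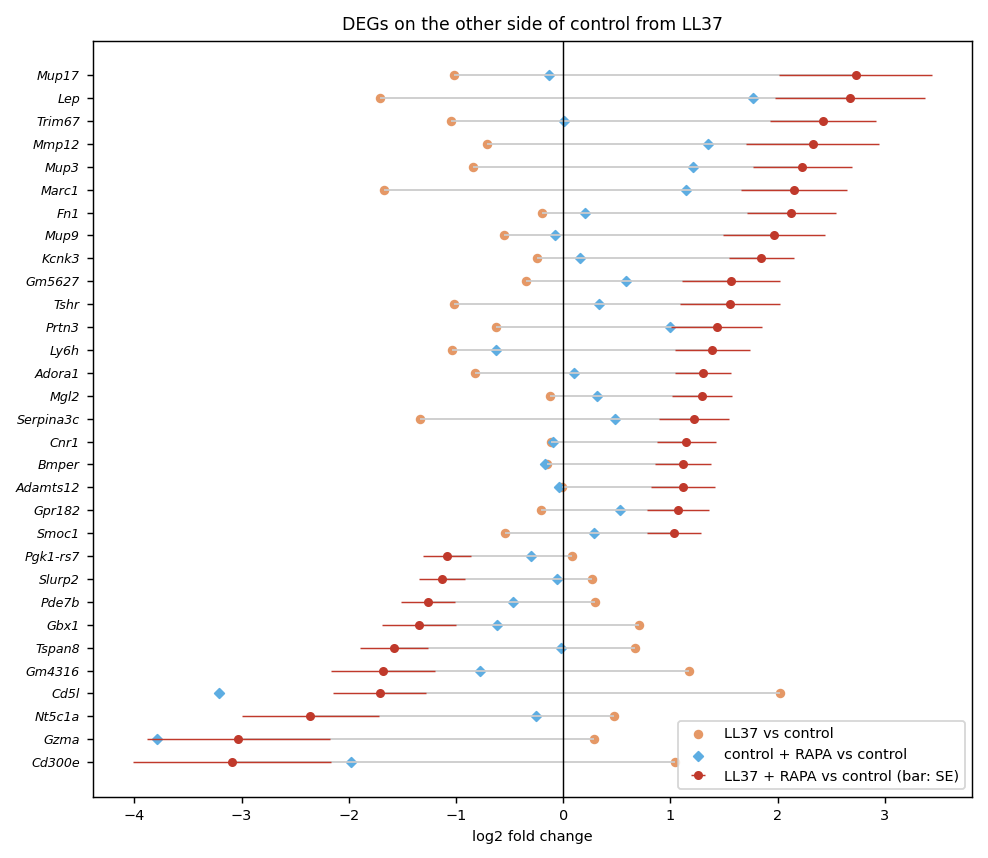
Log2 fold change against control of the 31 DEGs on the other side of control from LL37, for LL37 (orange), control + RAPA (blue diamonds) and LL37 + RAPA (red, bars are SE). Fn1, Kcnk3 and Tspan8 are past control in LL37 + RAPA with control + RAPA near 0, while Cd5l and Gzma are lower still in control + RAPA, at −3.21 and −3.79.

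Past the control level, 31 DEGs stood on the other side from LL37. The values that define this class are described without a test. Against control + RAPA, 13 of the 31 were DEGs in the same direction, beside 967 of all 1168 DEGs. That comparison reuses the LL37 + RAPA libraries by which the class was chosen, so the count carries no test. Only 3 of the 31 were DEGs between LL37 and control (Serpina3c, Cd5l and Gm4316), so that for the other 28 the LL37 side was not established by the test. The count of 31 was between 16 and 33 when 1 control or LL37 + RAPA library was left out and 64 when LL37 replicate 3 was, with 16 without LL37 + RAPA replicate 3 and 17 without control replicate 3 or LL37 + RAPA replicate 2, and 51 with scaling by library totals alone.

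Fn1 (ENSMUSG00000026193, chr1:71585520-71653200, minus strand), fibronectin, had the highest mean CPM of them in LL37 + RAPA. It had 386, 201 and 204 CPM in control, 757, 1914 and 785 CPM in LL37 + RAPA and 162, 240 and 289 CPM in LL37. All LL37 + RAPA libraries lay above all other libraries of the series, with replicate 2 far the highest, and the change was 2.13 against control (SE 0.42, adjusted p = 0.00526) and 1.92 against control + RAPA (adjusted p = 0.00735). Kcnk3, a background potassium channel, had 1.99, 1.33 and 1.79 CPM in control, 5.27, 6.8 and 6.4 CPM in LL37 + RAPA and 1.36 to 2.42 CPM in control + RAPA (1.85, SE 0.30). Adora1, the adenosine A1 receptor found in adipocytes among other cells, had 2.92 to 4.32 CPM in control, 8.68 to 9.87 CPM in LL37 + RAPA and 1.96 to 2.50 CPM in LL37. Adora1 overlaps Mybph on the other strand, and Fn1, Kcnk3 and Tspan8, given below, each overlap an other-strand gene too. Reads in these overlaps cannot be told apart.

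Lep, the fat hormone leptin, was past control too. It had 14.3, 8.92 and 2.84 CPM in control and 47.9, 47.2 and 72 CPM in LL37 + RAPA (2.68, SE 0.70, adjusted p = 0.0250). Control + RAPA had 8.08, 64.4 and 16.1 CPM, 1 of its libraries within the LL37 + RAPA range, and the difference from that group was 0.91 (adjusted p = 0.384). Mmp12, macrophage elastase, had the same form, with 23.1, 14.9 and 5.27 CPM in control, 67.0, 80.6 and 69.3 CPM in LL37 + RAPA and 18.3, 14.2 and 78.1 CPM in control + RAPA (2.33 against control, adjusted p = 0.0271, and 0.98 against control + RAPA, adjusted p = 0.297). Both calls against control were lost without control replicates 2 or 3 or LL37 + RAPA replicates 2 or 3, with adjusted p up to 0.0848 for Lep and 0.0918 for Mmp12. The major urinary protein genes Mup3, Mup9 and Mup17 are near-identical copies whose reads may be split, and their values are uncertain.

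On the lower side stood Tspan8 (ENSMUSG00000034127, chr10:115816832-115849893, plus strand), a tetraspanin of epithelia. It had 31.4, 20.9 and 28.2 CPM in control, 7.73, 7.82 and 11.4 CPM in LL37 + RAPA and 54.4, 53.5 and 20.5 CPM in LL37, of which replicate 3 lay just under the lowest control library. Control + RAPA had 25.9 to 27.1 CPM, and the change against that group was −1.56 (adjusted p = 0.00544), beside −1.58 against control (SE 0.32, adjusted p = 0.00633). Slurp2, a secreted peptide of keratinocytes, had 5.12 to 6.15 CPM in control and 2.12 to 2.99 CPM in LL37 + RAPA (−1.13, SE 0.21), and fell short of the fold limit without LL37 + RAPA replicate 3. Cd5l, an apoptosis inhibitor secreted by macrophages, had 4.96, 3.08 and 3 CPM in control, 1.76, 0.860 and 0.766 CPM in LL37 + RAPA and 0.596, 0.444 and 0.115 CPM in control + RAPA, so the libraries with RAPA and no LL37 were the lowest. Its call was lost without control replicate 1 or LL37 + RAPA replicates 2 or 3, with adjusted p up to 0.101. In control + RAPA, 8 of the 31 differed from control in the same direction at an unadjusted p under 0.05 by edgeR. By the same measure 67 of all 1168 DEGs did, and 8.65% of all tested genes differed in either direction. The class was chosen by distance from the same control libraries, so this count carries no test.

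Among the 247 DEGs farther from control than LL37 on the same side, 177 were also DEGs against control + RAPA, and 132 were DEGs between LL37 and control. These comparisons share libraries with the choice of the class, so the counts carry no test. The difference between LL37 and LL37 + RAPA was itself a DEG for 26 of them. The lower ones with the smallest p against control included Gys1, Vldlr and Ogdh, given above, and the following. That p does not bear on the distance from LL37. The Ogdh values of LL37 + RAPA lay inside the LL37 range, and Gys1 did not pass the test against LL37. Atp1b1, a subunit of the sodium pump, had 160, 109 and 116 CPM in control, 23.1, 16.5 and 18 CPM in LL37 + RAPA and 26.2 to 35.5 CPM in LL37 (−2.74, SE 0.22, adjusted p = 1.42e-05). Slc25a12, the mitochondrial aspartate-glutamate carrier, went from between 121 and 150 CPM to between 34.2 and 39.0 CPM (−1.89, SE 0.12). Fer1l6, a ferlin of membrane fusion, fell at least 36.7-fold, from between 3.79 and 5.79 CPM to at most 1 count in any LL37 + RAPA library.

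The higher ones with the smallest p against control included Meox1 and Ltbp2. Ltbp2, a matrix protein of elastic microfibrils, had 85.9, 72.3 and 84.6 CPM in control, 173, 166 and 182 CPM in LL37 + RAPA and 83.9, 118 and 91.5 CPM in LL37. LL37 + RAPA lay above both groups without overlap, by 1.10 over control (SE 0.13, adjusted p = 0.000261) and by 0.83 over LL37 (adjusted p = 0.00248). Meox1, a homeobox factor of stroma, had 3.28 to 4.53 CPM in control, 11.1 to 14.5 CPM in LL37 + RAPA and 6.86 to 7.30 CPM in LL37 (1.73, SE 0.19), and LL37 minus LL37 + RAPA was −0.85 (adjusted p = 0.00778). Klhl6, of lymphoid and myeloid cells, had 2.92 to 5.72 CPM in control, 16.2 to 24.1 CPM in LL37 + RAPA and 4.79 to 8.43 CPM in LL37 (2.09, SE 0.29). The count of 247 was 149 without LL37 + RAPA replicate 2.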

How the data were processed

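RNA of whole mouse skin was sequenced in 12 libraries, 3 for each of control, control + RAPA, LL37 and LL37 + RAPA, and groups were taken from the labels. The authors deposited raw read counts per gene, not normalized, for 52636 genes. The methods name HTSeq 0.6.0, and the submitters' processing notes name HISAT2 2.0.5, StringTie 1.3.3b, featureCounts 1.5.0-p3, DESeq2 1.16.1 and mm10, so which counter made the table is not settled. The library kit does not mark strand. Symbols were matched for 52403 genes.

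Counts were filtered by filterByExpr, leaving 17993 genes, scaled by TMM, and tested with the quasi-likelihood F-test of edgeR 4.0.16 in R 4.3.3, with all 12 libraries in 1 fit and Benjamini-Hochberg adjustment over the tested genes. All adjusted p-values in the text come from this test unless DESeq2 (1.42.0) is named. A DEG passed an adjusted p of 0.05 and a log2 fold change of 1 in size. The precision per library is set by total counts of 15734559 to 23271784. A prior count of 2 was added before log2 for principal components. Scripts were tested on simulated data. No 2 libraries of a group agreed within sampling noise. Nothing states whether mice of a group shared a litter or cage, so p-values measure the spread between these samples.

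The members and gene lists were chosen with earlier results of these data known. Genes named were up to 4 DEGs of smallest p per list and direction, the 8 of smallest p in each direction over all genes, the 10 of smallest p among genes past control or beyond LL37, and readouts of the study. Others, such as Myog, Cdh15, Adgre1, Mki67, Krt16, Slc2a1 and Col3a1, were chosen for their role after their values were seen. Promoters came from RefSeq (GRCm38.p6). Alternatives changed the scaling, the filter, the tool, the fold limit, the groups fitted and the replicate block, and left out each control and LL37 + RAPA library in turn, or LL37 replicate 3. For the interaction each of the 12 libraries was left out. 1 result is not reported here.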

Additional observations from a re-analysis of the deposited data

Results flagged for a closer look

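In 19 of the 176 named genes the response to LL37 differed between mice with and without RAPA, by the interaction term of the edgeR fit (adjusted p 0.0198 to 0.0485). Over all tested genes, 429 of 17993 did (2.38%). Named genes were chosen in part by LL37 + RAPA against control, whose values enter the term, so the count of 19 carries no test. The term is the log2 change of LL37 + RAPA against control + RAPA minus that of LL37 against control. It was positive for the muscle genes Myoz1 (3.73), Scn4b (3.17), Tmod4 (1.23), Adssl1 (1.02) and Prkaa2 (1.01), and for the fat and fuel genes Car3 (2.95), Plin1 (2.86), Mlxipl (2.84), Adipoq (2.48) and Slc2a4 (2.02). It was also positive for Trim67 (3.47), Rragd (2.19), Klhl6 (2.17), Adora1 (2.02) and Kcnk3 (1.94). It was negative for Tspan8 (−2.23), Il1a (−1.93), Vegfa (−1.81) and Slurp2 (−1.35). None of the 19 was called in all 12 fits that left out 1 library: 0 were called without control replicate 1, LL37 + RAPA replicate 1 or control + RAPA replicate 3, and 18 without LL37 replicate 3.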

How the results depend on the processing

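The 1168 DEGs of LL37 + RAPA against control numbered 743 with 10 counts required in every library and 2527 with no fold limit, and 793 to 1158 with 1 control or LL37 + RAPA library left out, which is meant by 1 library left out below. Other settings stayed within 1.5 times, among them 1304 with DESeq2 and 1394 with LL37 replicate 3 left out, which also gave 1705 against control + RAPA, 1144 against both controls and 213 in the gene lists. Against control + RAPA there were 3338 without a fold limit and 1074 to 1509 with 1 library left out, none of them from control + RAPA. DEGs against both controls in 1 direction numbered 614 with the 10-count filter, 2063 without a fold limit and 657 to 968 with 1 library left out. The 31 genes past control became 51 with library sizes alone, 47 with a filter of 1 count in total, 48 with DESeq2, 89 without a fold limit, 64 with LL37 replicate 3 left out and 16 to 33 with 1 library left out. The 247 genes beyond LL37 became 745 without a fold limit and 149 to 301 with 1 library left out. DEGs in the gene lists became 285 without a fold limit and 114 to 167 with 1 library left out. The cause of these shifts was not tested. The added setting, all LL37 libraries left out of the fit and chosen after seeing the data, gave 1343 DEGs. With the replicate number as a block there were 1081 DEGs, 33 genes past control and 230 beyond LL37. The numbers are only names here: same-numbered control and LL37 + RAPA libraries correlated at −0.00337, −0.0697 and 0.263 in their deviations from the group means. Fits without LL37 gave no counts past control or beyond LL37, and the fit of 2 groups none against control + RAPA. Of 133 named DEGs, 91 were called in every setting. Signs turned only in genes that were not called. With library sizes alone Il1a was 0.0676 and Tnf 0.0669, and Tnf was 0.0270 with the block. With 1 library left out, Il1a ranged from −0.105 to 0.000479, Tnf from −0.394 to 0.835, Il1b from −0.257 to 3.21, Ccl3 from −0.560 to 1.32, Adgre1 from −0.0940 to 0.329, Alas2 from −0.415 to 0.0251, Hbb-bs from −0.462 to 0.0477 and Krt5 from −0.0133 to 0.226. Depth limits genes near 3 counts, such as Ppbp and Il6 in control.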
